A study of Mus musculus with 8 samples.

Results

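The genes described here are 9 mouse long noncoding RNA (lncRNA) genes, taken by symbol and mapped to their Entrez identifiers among the 23403 genes of the deposited count table. They are Malat1 and Neat1, whose RNAs stay in the nucleus, and 7 hosts of small nucleolar RNAs (snoRNAs), namely Gas5, Snhg1, Snhg3, Snhg5, Snhg6, Snhg8 and Snhg12. The study asked how transcription and open chromatin respond to hexavalent chromium, Cr(VI), in Hepa-1c1c7 (Hepa-1) cells, a mouse hepatoma line from ATCC. RNA-seq was analysed for 2 libraries of cells kept in medium with 25 µM CrK2O4 over 90 minutes and for 2 libraries of control cells without chromium, whose labels name no regimen. FAIRE-seq, which recovers DNA that is not crosslinked to protein after formaldehyde treatment, gave 1 list of peaks for the acute exposure and 1 for cells kept over 20 passages with 0.5 µM CrK2O4 added every day, each called in 1 treated library against 1 control library. The paper describes control cells grown without chromium for an equal number of passages, directly after the 20-passage regimen. It gives no passage number for the acute exposure, and the labels give none for the RNA-seq controls. All libraries came from the same cell line, the labels do not say whether replicates were separate cultures, and p-values therefore measure only the spread between these libraries, which may be technical.

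Malat1 RNA gathers in nuclear speckles, bodies rich in splicing factors, and its tail is not a normal poly(A) tail: a tRNA-like small RNA called mascRNA is cut from the end of the transcript, and the end that is left folds into a triple helix. Neat1 is made next to it on the same chromosome, in a short polyadenylated form and a long form that is the scaffold of paraspeckles, nuclear bodies that hold RNA-binding proteins. The hosts carry snoRNAs, guides for the modification of ribosomal RNA, in their introns. The spliced host RNA is exported, is often a substrate of nonsense-mediated decay, and for many hosts starts with a pyrimidine tract like that of ribosomal protein mRNAs.

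Counts summed to between 32319676 and 37696116 per RNA-seq library, which is the depth behind every value given here, and no member had fewer than 247 counts in any library. Levels are given as CPM, counts per 1000000 after normalization by the TMM method of edgeR. Of the 23403 genes, 13619 passed a filter on low counts and entered the quasi-likelihood test of edgeR, all 9 members among them. Errors of log2 fold changes are given as SE, the standard error. A gene is said to have risen or fallen where its p-value, adjusted over all tested genes by the Benjamini-Hochberg method, was under 0.05. The Pearson correlation of log2 CPM across genes, which are not independent replicates, was 0.997 for the control pair and 0.974 for the treated pair. Of 9 hepatocyte markers, 8 could be tested and 2 of these, Alb and Ttr, rose, and the summed level of the 9 was 6019 and 6656 CPM in treated against 3130 and 3250 CPM in control libraries. Alb, the main plasma protein, was at 3608 ± 82.9 CPM (SD, n = 2) in treated and 926.1 ± 30.3 CPM in control cells. Apoa1, another plasma protein of hepatocytes, had 0 counts in both controls and 2 and 9 counts in treated libraries, and Ttr was at 0.339 CPM in controls, so not every hepatocyte marker was present. The 8 markers of other cell types summed to between 1305 and 1679 CPM. Most of this was Vim (1166 ± 160.9 CPM in treated, 1293 ± 22.3 CPM in control cells) and Col1a1 (299.2 ± 91.8 and 205.1 ± 2.61 CPM). Neither of these passed the test, and Vim was above Alb in control cells. Cdh5 was at 0 in every library, and Pecam1 rose (2.01 ± 0.333 against 0.487 ± 0.00214 CPM). The part of these differences in the results below was not tested.

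At 25 µM Cr(VI) both nuclear RNAs fell and 1 of the 7 hosts rose. Malat1 and Neat1 fell from means of 138.7 and 99.3 CPM to 40.8 and 19.8 CPM, Gas5 rose from 64.9 to 145.5 CPM, and the log2 fold changes of the other 6 hosts were all above 0 but did not pass the test. Of the 9 members, 3 passed the threshold, 2 lower and 1 higher, where 4.63% of all tested genes passed it, 2.85% lower and 1.78% higher. With DESeq2's Wald test 7 members passed, 2 lower and 5 higher, where 14.8% of genes did, 7.6% lower and 7.22% higher. The groups did not overlap for 8 of the 9 members, 2 with treated libraries below and 6 above, and for 66.3% of all tested genes, 34% below and 32.2% above. In bulk RNA, fewer cells that express a gene and less of its RNA per cell cannot be told apart.

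**Figure D1:**
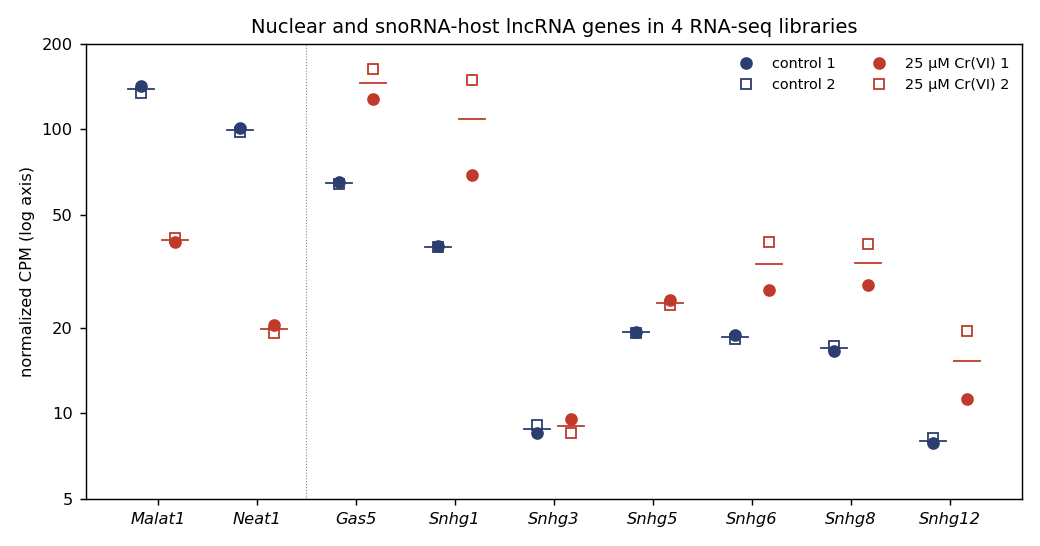
Normalized CPM of the 9 members (log axis) in 2 control libraries (blue) and 2 libraries exposed to 25 µM Cr(VI) (red), with the mean of each pair as a line. Treated libraries sit below controls for Malat1 and Neat1, above controls for 6 hosts, and overlap with the controls for Snhg3.

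Malat1 (Entrez 72289) is a single-exon gene of 6983 bp on the minus strand of chromosome 19, from 5795690 to 5802672 in mm10. It was at 142.4 and 134.9 CPM in the control libraries and at 40.1 and 41.4 CPM in the treated libraries. The groups did not overlap, and the treated libraries differed from each other by less than the controls did. The log2 fold change of treated against control cells was −1.77 (SE 0.11, adjusted p = 0.0282 from edgeR), a 3.40-fold lower level. Of the 13619 tested genes, 334 (2.45%) had a lower log2 fold change. If synthesis had stopped at the start of the treatment, a fall of this size in 90 minutes would take a half-life of 51.0 minutes. This is arithmetic on the 2 means, and neither synthesis nor decay was measured.

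Neat1 (Entrez 66961) lies on the same strand, from 5824708 to 5845480, 22035 bp from Malat1. The gene spans 20773 bp and its shorter annotated transcript 3185 bp. Both forms begin at the same end of the gene, and the counts do not separate them. It was at 100.9 and 97.8 CPM in the controls and at 20.4 and 19.2 CPM in treated cells. On the log2 scale the groups were further apart than those of Malat1, with little spread within either. The log2 fold change was −2.32 (SE 0.11, adjusted p = 0.0278 from edgeR), a 5.01-fold lower level, and 186 genes (1.37%) had a lower one. The corresponding half-life was 38.7 minutes. Within a library, the counts of Malat1 were 1.41 and 1.38 times those of Neat1 in the controls and 1.97 and 2.15 times in treated cells, so the ratio was higher in both treated libraries than in both controls, a difference that was not tested.

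Both calls held under each of the 10 alternative settings tried for the fold changes of members, with adjusted p-values of at most 0.0346 from edgeR or DESeq2 and log2 fold changes between −1.88 and −1.73 for Malat1 and between −2.43 and −2.28 for Neat1. The library preparation selected poly(A) RNA, so the values are those of RNA that this step retained, and the long form of Neat1 and the mature end of Malat1 carry no normal poly(A) tail.

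**Figure D2:**
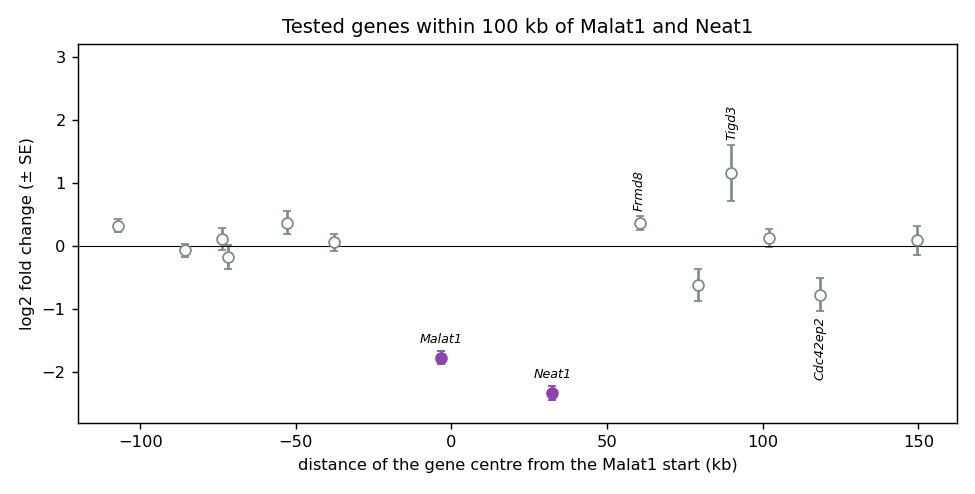
Log2 fold change (25 µM Cr(VI) minus control, ± standard error) of the tested genes within 100 kb of Malat1 and Neat1, placed by the distance of the gene centre from the Malat1 start in kb. Filled points have an adjusted p-value under 0.05: Malat1 and Neat1 lie at −1.77 and −2.32, and the 12 other genes, none of them filled, between −0.77 and 1.16; those the text describes are labelled.

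The genes around Malat1 and Neat1 were examined after the values of the pair were known. Within 100 kb of the pair, 12 other genes were tested. Of these, 0 passed in edgeR's quasi-likelihood test, 3 had an unadjusted p under 0.05 and 0 passed in DESeq2. These counts stand against 4.63%, 30.7% and 14.8% of all tested genes. Frmd8, the next gene beyond Neat1, had 42.2 CPM with and 32.9 CPM without Cr(VI) (log2 fold change 0.36). The lowest value among the 12 was that of Cdc42ep2 (−0.77, adjusted p = 0.144 from edgeR) and the highest that of Tigd3 (1.16, adjusted p = 0.173). mascRNA, whose gene lies inside Malat1, was not analysed here.

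The starts of the hosts are shown because a pyrimidine tract at the first bases is what many of these genes share with the translation machinery. RefSeq promoters of GRCm38.p6, the assembly of mm10, were matched for 7 members, all but Neat1 and Snhg6, and Gas5 had 2 annotated starts, of which the second is shown, since the first held no tract. Each line gives the 10 bases before the annotated start and the 20 bases from it, 5′ to 3′ on the strand of the gene. Capitals mark the longest tract of a C followed by at least 4 bases that are C or T, beginning within 15 bp of the start.
Malat1, chr19:5802653-5802682, minus strand: ggctctgcgtcaggcattcaggcagcgaga
Gas5, chr1:161035156-161035185, plus strand: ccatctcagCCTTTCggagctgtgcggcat
Snhg1, chr19:8723477-8723506, plus strand: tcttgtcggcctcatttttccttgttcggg
Snhg3, chr4:132353667-132353696, minus strand: gaccacgcctgaCTTCCgggcgttacttaa
Snhg5, chr9:88522878-88522907, minus strand: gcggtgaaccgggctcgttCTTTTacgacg
Snhg8, chr3:123508317-123508346, minus strand: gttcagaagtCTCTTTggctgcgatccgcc
Snhg12, chr4:132308668-132308697, plus strand: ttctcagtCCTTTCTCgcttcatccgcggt

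A tract was found in 5 of the 8 promoters of members, where 40.9% of the 32851 mouse promoters held one by the same rule. The 5 belong to 5 of the 6 hosts with a promoter. The tract of Snhg8 began at the annotated start itself, those of Gas5 and Snhg12 at 1 and 2 bases before it, that of Snhg3 at 2 bases after it and that of Snhg5 at 9 bases after it. With at least 6 pyrimidines after the C, only Snhg12 held a tract among the members with a promoter, against 17.0% of all promoters. With a tract that begins within 5 bp of the start, Gas5, Snhg3, Snhg8 and Snhg12 held one, against 18.3% of all promoters. The 300 bp from 250 bp before each start were searched on both strands. None of the 7 members with a promoter held the AP-1 site (TGACTCA or TGAGTCA, in 5.20% of promoters), the E-box (CACGTG, in 7.15%) or the heat shock element (GAANNTTC, in 7.86%). The CRE (TGACGTCA, in 1.79% of promoters) was found at the second start of Gas5 and the core of the antioxidant response element (TGACNNNGC, in 12.4%) in Snhg8. These matches describe the letters in these windows and no binding was measured.

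Gas5 (Entrez 14455), named for its rise in growth-arrested cells, has up to 12 exons and 8 annotated snoRNA genes within its span on the plus strand of chromosome 1, from 161034601 to 161038539. It was at 65.5 and 64.4 CPM in the controls and at 128.2 and 162.9 CPM in treated cells. The groups did not overlap. The log2 fold change was 1.16 (SE 0.15, adjusted p = 0.0393 from edgeR), a 2.24-fold higher level, and DESeq2 gave an adjusted p of 1.44e-05. Without control replicate 1 or control replicate 2 the log2 fold change was 1.15 or 1.13 and the call was lost (adjusted p = 0.125 and 0.141 from edgeR).

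Snhg1 (Entrez 83673), with 10 exons and 8 annotated snoRNA genes on chromosome 19 from 8723487 to 8726326, had the largest log2 fold change of the hosts and the widest spread. It was at 38.7 CPM in both controls and at 69.0 and 149.3 CPM in treated cells. Both treated libraries were above the controls, but they differed from each other by 2.16 times. The log2 fold change was 1.495 (SE 0.39, adjusted p = 0.0985 from edgeR). It was 0.83 without treated replicate 2 and 1.96 without treated replicate 1. Snhg1 passed in edgeR without control replicate 1 (adjusted p = 0.0350) and without control replicate 2 (adjusted p = 0.0389), and DESeq2, in which Snhg1 passed, gave an adjusted p of 0.000278.

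Snhg8, Snhg6 and Snhg12 had treated libraries above both controls and did not pass the test in edgeR. Snhg8 (Entrez 69895), annotated on chromosome 3 from 123507552 to 123508336 as a single exon that contains Snora24, was at 16.6 and 17.3 CPM in controls and at 28.2 and 39.6 CPM in treated cells (log2 fold change 1.00, SE 0.21, adjusted p = 0.0709 from edgeR). Snhg6 (Entrez 73824), host of Snord87 on chromosome 1 from 9942025 to 9944118, was at 18.96 and 18.31 CPM in controls and at 27.3 and 40.1 CPM in treated cells (log2 fold change 0.85, SE 0.22, adjusted p = 0.0985). Snhg12 (Entrez 100039864), host of Snora16a, Snora44, Snora61 and Snord99 on chromosome 4 from 132308678 to 132311024, was at 7.85 and 8.18 CPM in controls and at 11.2 and 19.5 CPM in treated cells (log2 fold change 0.93, SE 0.31, adjusted p = 0.139). In each of these 3 genes treated replicate 2 was the higher of the treated libraries, by 1.40, 1.47 and 1.74 times, and DESeq2 called all 3, with adjusted p-values of 0.00338, 0.0199 and 0.0438. Without treated replicate 2 or treated replicate 1, the log2 fold change was 0.73 or 1.23 for Snhg8, 0.55 or 1.12 for Snhg6 and 0.48 or 1.29 for Snhg12. The spread in those fits comes from the controls alone, so only their log2 fold changes are given.

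Snhg5 and Snhg3 were nearest to their controls. Snhg5 (Entrez 72655), which carries 2 annotated snoRNA genes on chromosome 9 from 88521052 to 88522897, was at 19.3 CPM in both controls and at 25.0 and 24.1 CPM in treated cells. Its treated libraries were close together and above both controls, at a log2 fold change of 0.35 (SE 0.13, adjusted p = 0.159 from edgeR). Snhg3 (Entrez 399101), host of Snora73a and Snora73b on chromosome 4 from 132351933 to 132353686, was at 8.51 and 9.08 CPM in controls and at 9.55 and 8.53 CPM in treated cells. The groups overlapped, with a log2 fold change of 0.039 (SE 0.17, adjusted p = 0.896 from edgeR), and the sign turned without normalization beyond library size (−0.067), without treated replicate 1 (−0.037) and without control replicate 1 (−0.027). Snhg3 and Snhg12 start 45008 bp apart on opposite strands, and their log2 fold changes, 0.039 and 0.93, were those of the lowest and the middle host.

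Over the 7 hosts the median log2 fold change was 0.93, where the median of all tested genes was −0.0047. Both treated libraries were above both controls in 6 of the 7, against 32.2% of all tested genes. The 7 log2 fold changes were above 0 with TMM factors, while that of Snhg3 was below 0 without normalization beyond library size, which moved the median of all genes to −0.11 and that of the hosts to 0.80. The median of the hosts was 0.55 without treated replicate 2 and 1.23 without treated replicate 1. The treated libraries differed by 1.27 to 2.16 times in Gas5, Snhg1, Snhg6, Snhg8 and Snhg12, always with replicate 2 higher. In the controls no host differed by more than 1.07 times.

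**Figure D3:**
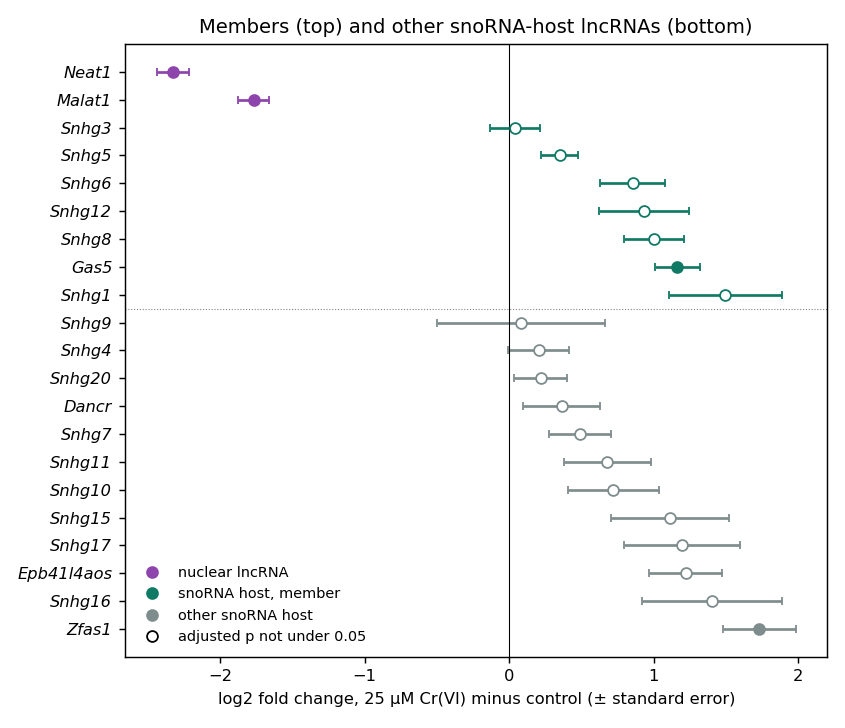
Log2 fold change (25 µM Cr(VI) minus control, ± standard error) of the 9 members and, under the dotted line, of the 12 other snoRNA-host lncRNAs that could be tested; filled points have an adjusted p-value under 0.05. Malat1 and Neat1 are the only points below 0, and Gas5 (1.16) and Zfas1 (1.73) are the filled points above it.

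Because normalization cannot move a ratio of genes within 1 library, the hosts were also set against Malat1 and Neat1 inside each library. The mean log2 CPM of the 7 hosts minus that of Malat1 was −2.87 and −2.78 in the controls and −0.46 and −0.060 in treated cells. The difference between the groups, 2.57 on the log2 scale, was a 5.92-fold change of the ratio, and the gaps within the groups were 0.097 in controls and 0.40 in treated cells. Against Neat1 the values were −2.38 and −2.31 in controls and 0.52 and 1.04 in treated cells, a difference of 3.12 and an 8.71-fold change of the ratio. In summed counts the 7 hosts together had 1.23 and 1.30 counts for each count of Malat1 in the controls and 7.44 and 10.7 in treated cells. The groups were well separated in each of these ratios. These are descriptions without a test, since the members were chosen with these results known. When libraries were left out singly, the difference stayed between 2.37 and 2.76 against Malat1 and between 2.86 and 3.39 against Neat1.

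**Figure D4:**
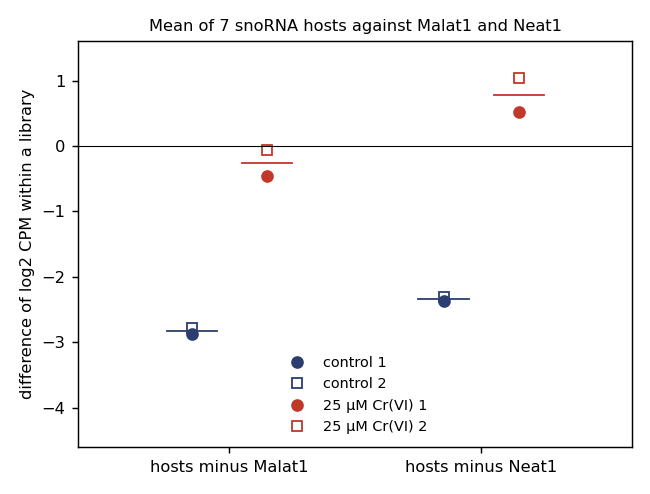
Mean log2 CPM of the 7 hosts minus the log2 CPM of Malat1 (left) or Neat1 (right) in each library, with group means as lines. Controls lie between −2.87 and −2.31, treated libraries between −0.46 and 1.04.

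Levels can be compared between genes only per length, and were divided here by the annotated exon length. In control cells Gas5 was highest at 104.8 ± 1.25 CPM per kb (SD, n = 2), followed by Snhg1 at 81.3 ± 0.0270 and Snhg6 at 45.8 ± 1.12. Snhg8 (21.6 ± 0.601), Snhg3 (20.1 ± 0.915), Malat1 (19.9 ± 0.764) and Snhg5 (19.1 ± 0.0287) came next, and of these Snhg3 and Malat1 overlapped in range. Snhg12 was at 13.2 ± 0.388 CPM per kb. Neat1 was at 4.78 ± 0.107 over the exon length of the long form and at 31.2 over that of the short form, so its place in this order depends on the form that was sequenced. In treated cells Gas5 (234.7 ± 39.6) and Snhg1 (229.3 ± 119.1) overlapped in range at the top. Over its shortest annotated transcript, of 282 bp, Gas5 would be at 230.3 CPM per kb in control and 516.0 in treated cells, so its distance from Snhg1 also depends on the form. They were followed by Snhg6 at 82.8 ± 22.2 and Snhg8 at 43.2 ± 10.2 CPM per kb. The range of Snhg12 (25.3 ± 9.65) took in those of Snhg5 (24.3 ± 0.634) and Snhg3 (20.7 ± 1.65). Malat1 was at 5.84 ± 0.127 CPM per kb, below every host, and Neat1 at 0.954 ± 0.0406 over the long form and 6.23 over the short form. All these levels are of RNA that the poly(A) selection retained. The mature end of Malat1 and the long form of Neat1 carry no normal poly(A) tail. Their places in this order therefore need not be those of the RNAs in the cell.

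The annotation places 26 snoRNA genes in the 7 hosts and none in Malat1 or Neat1. Of these, 8 had counts in the table, between 9 and 235 in a library, and all 8 could be tested. snoRNAs carry no poly(A) tail, and what the few reads counted on them represent after a poly(A) selection was not tested. In edgeR's quasi-likelihood test 0 of the 8 passed, with 1 at an unadjusted p under 0.05, and DESeq2 called 1. These counts stand against 4.63%, 30.7% and 14.8% of all tested genes. The largest log2 fold change was that of Snord22 in Snhg1, with 92 and 126 counts in controls and 166 and 235 in treated cells (1.15, adjusted p = 0.111 from edgeR). The lowest was that of Snora61 in Snhg12 (−0.29), which had 19 and 31 counts in controls and 13 and 21 in treated cells.

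Other annotated genes share the ends of some hosts. The start of Gas5 is 110 bp from that of Zbtb37, which codes for a zinc finger protein and runs on the opposite strand, and that of Snhg1 is 118 bp from that of Slc3a2, the heavy chain of amino acid transporters. Zbtb37 had a log2 fold change of 0.058 (adjusted p = 0.908 from edgeR), with 3.51 ± 1.01 CPM with and 3.38 ± 0.223 CPM without Cr(VI). Slc3a2 had 287.7 ± 86.0 CPM with and 208.5 ± 0.649 CPM without Cr(VI) (log2 fold change 0.46, adjusted p = 0.253). Mcmdc2 overlaps Snhg6 in antisense (0.54, adjusted p = 0.251). How the authors assigned reads of overlapping genes, and whether they used strand, is not given in the sources used here, so the counts of Gas5 and Snhg6 are uncertain to that extent.

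Of 14 other snoRNA-host lncRNAs, 12 could be tested, and all 12 log2 fold changes were above 0, with a median of 0.70. Only Zfas1, host of Snord12 genes, rose, from 58.6 CPM in both controls to 150.5 and 238.5 CPM in treated cells (log2 fold change 1.73, SE 0.25, adjusted p = 0.0438 from edgeR). DESeq2 called 5 of the 12, all higher, where it called 7.22% of all genes it tested higher. Snhg16 (1.40, adjusted p = 0.146 from edgeR), Snhg17 (1.20, adjusted p = 0.141) and Snhg15 (1.11, adjusted p = 0.159), named after their values were seen, had treated SDs of 32.6, 23.6 and 27.7 CPM around means of 51.3, 44.6 and 50.9 CPM. When hosts were taken from the annotation instead, 27 tested lncRNA genes held a snoRNA gene, with a median log2 fold change of 0.68 and 24 values above 0. The 20 of them that are not members had a median of 0.53. The 556 tested lncRNA genes without a snoRNA gene had a median of −0.049. The 183 tested protein-coding genes that hold a snoRNA gene had a median of 0.059. Of these 183, 1 rose and 2 fell, against 1.78% and 2.85% of all tested genes. These medians describe the classes and the difference between them was not tested.

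Among all 583 tested lncRNA genes, 11 fell and 6 rose, where 2.85% of all tested genes fell and 1.78% rose. Neat1 and Malat1 had the 9th and the 22nd lowest log2 fold changes of the 583. They were the 2 genes called among the 86 single-exon lncRNA genes, whose median was −0.065. Of a list of 13 other lncRNAs, 10 could be tested and 0 passed in edgeR, against 4.63% of all tested genes. Of these 10, 5 had an unadjusted p under 0.05, against 30.7% of all tested genes. DESeq2 called 2 of them higher and 3 lower, against 7.22% and 7.6% of all genes. Xist, the RNA of the inactive X chromosome, had 576.0 ± 243.4 CPM with and 568.1 ± 42.1 CPM without Cr(VI) (log2 fold change 0.020, adjusted p = 0.974 from edgeR). Norad, a cytoplasmic decoy of Pumilio proteins, had 445.6 ± 35.5 and 262.8 ± 2.37 CPM (log2 fold change 0.76, adjusted p = 0.0558 from edgeR).

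Of the protein genes of these pathways, 70 in 6 lists were tested. In edgeR's quasi-likelihood test 0 of the 70 passed, where 4.63% of all tested genes did. The counts of these lists below at an unadjusted p under 0.05 and by DESeq2 stand against 30.7% and 14.8% of all tested genes. Of the 8 core proteins of snoRNPs, the complexes of a snoRNA and its proteins, 1 had an unadjusted p under 0.05 and DESeq2 called 0. Their log2 fold changes ran from −0.39 to 0.60, and Nop56 and Nhp2, named for the highest mean CPM over the 4 libraries, were at −0.078 and 0.042. The 10 assembly factors ran from −0.49 to 0.44 (3 at an unadjusted p under 0.05, 0 called by DESeq2), with Nolc1 at 0.30 and Ruvbl2 at 0.17. The 13 factors of lariat opening and of exonuclease decay in the nucleus ran from −0.52 to 0.23 (0 at an unadjusted p under 0.05, 0 called by DESeq2), with Xrn2 at 0.015 and Mtrex at −0.060.

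Of the 10 factors of nonsense-mediated decay, the pathway that degrades many spliced hosts, 9 had log2 fold changes above 0 and 0 passed in edgeR, with 2 at an unadjusted p under 0.05 and 0 called by DESeq2. Upf1, the central helicase, was at 0.34 (156.5 ± 18.7 against 123.6 ± 1.90 CPM) and Smg5 at 0.40. The median of these 10 was 0.21. Of 13 paraspeckle proteins, the partners of Neat1, 0 passed in edgeR, 2 had an unadjusted p under 0.05, and DESeq2 called 1, lower. Hnrnpk and Nono, named by the same rule, had log2 fold changes of 0.12 and 0.10. Pspc1, the gene called by DESeq2 and named after its value was seen, had 28.0 ± 1.14 CPM with and 44.0 ± 0.640 CPM without Cr(VI) (log2 fold change −0.65, adjusted p = 0.0576 from edgeR). The 16 nuclear speckle proteins, neighbours of Malat1 in the nucleus, had a median of 0.35. Of these, 0 passed in edgeR, 6 had an unadjusted p under 0.05, and DESeq2 called 2, both higher. Srsf2, a splicing factor, was at 0.72 (533.2 ± 148.2 against 322.6 ± 1.58 CPM, adjusted p = 0.130 from edgeR), and Sf3b1 at 0.053.

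**Figure D5:**
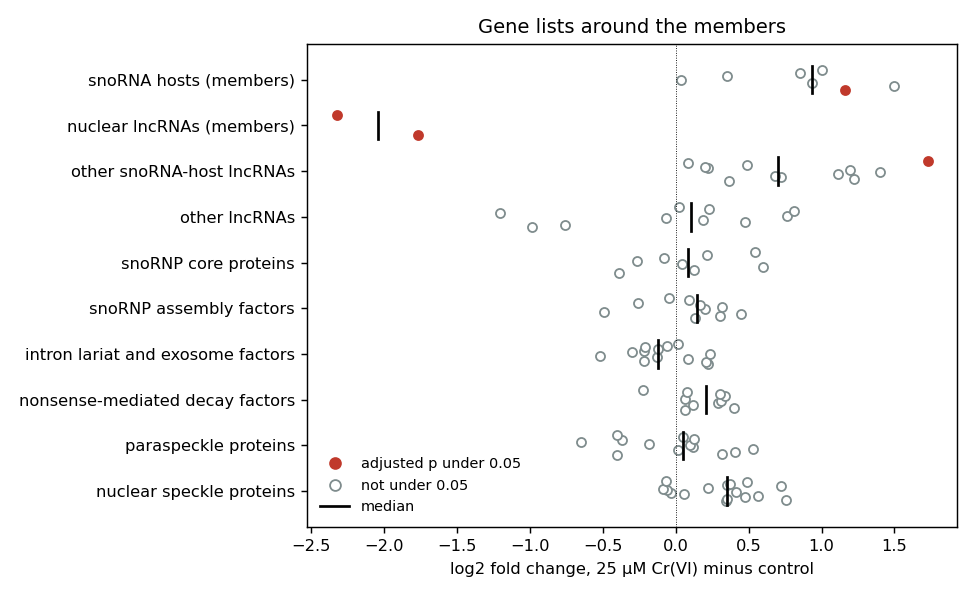
Log2 fold change (25 µM Cr(VI) minus control) of each tested gene in 10 lists, with the median of each list as a black bar and genes with an adjusted p-value under 0.05 in red. The 2 nuclear lncRNAs lie left of every other gene shown, the host lists have medians of 0.93 and 0.70, and the protein lists have medians from −0.12 to 0.35.

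By the distance between profiles of log2 CPM over the 4 libraries, each centred on its own mean, and among tested genes whose mean log2 CPM was 2 or more, the nearest to Malat1 were Socs2, a feedback inhibitor of cytokine signalling, at a distance of 0.045, the histone gene H2bc9 at 0.093 and Rasal2 at 0.10. Among those most like Neat1 were Eps8 (0.051) and Morc1 (0.12). Malat1 was 58th in the order of likeness to Neat1 and Neat1 118th in that to Malat1. The genes most like the mean of the hosts were C1ra (0.030), Pdia6 (0.036) and Zfp64 (0.036). These orders rest on 4 libraries and describe them only.

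Both FAIRE lists hold regions more open in treated than in control cells. Regions more open in control cells, which the paper also counted, were not examined here. No FAIRE peak of either list touched a member or the 1000 bp on either side. By the same rule, 3.8% of the 49595 annotated genes had one of the 2945 peaks of the 25 µM list, and 1.18% had one of the 860 peaks of the 0.5 µM list. With 10000 bp on either side the counts were still 0 of 9, against 6.42% and 1.99% of all genes. The members' nearest peaks in the 25 µM list lay at a median of 213.5 kb, and the closest was a peak of 113 bp with a score of 58.7 on chromosome 1 from 161005635 to 161005747, 28.9 kb upstream of Gas5. The nearest to Malat1 and Neat1 were 213.5 and 219.0 kb away, on either side of the pair. In the 0.5 µM list the closest was a peak of 325 bp on chromosome 9 from 88482528 to 88482852, 38.2 kb beyond the end of Snhg5, with a score of 55.2, and the median distance was 456.8 kb. The scores are those of the authors' peak caller, whose scale the files do not state. With 1 library per condition there is no replicate check, the lists give no read counts behind a peak, and the absence of a called peak at 9 genes is not a measurement that chromatin there was the same.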

How the data were processed

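RNA was prepared with a poly(A) selecting kit, and the authors aligned reads to mm10 with TopHat and deposited raw read counts per Entrez gene. The counting tool, annotation and use of strand are not given in the sources used here. For FAIRE-seq the authors aligned reads with BWA and called peaks with MACS, and the deposited peak score is that of MACS, on a scale the files do not state. The submitters' processing notes also name CASAVA 1.8 and DESeq.

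The 9 members and all gene lists were chosen with earlier results of these data known. Counts of 4 libraries were normalized by TMM, filtered with filterByExpr and tested with edgeR's quasi-likelihood test without a block (two-sided, Benjamini-Hochberg over 13619 genes). Standard errors are the log2 fold change divided by the square root of F. Log2 CPM used a prior count of 2. Gene spans, starts and exons came from RefSeq on GRCm38.p6. Peaks counted at a gene when 1 bp lay in its span or 1000 bp to either side. Steps were tested on simulated data with known changes.

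Named genes were the members, tested neighbours, the 3 called list genes with the smallest p or, with none, the 2 of highest level, and the 3 genes of the most similar profile; some genes that this rule takes in are not reported here. The replicate 1 libraries of the 2 groups correlated at 0.091 across genes in their deviations from the group means. With 2 libraries per group, replicate 2 must give the same value, so this was a single comparison. The numbers were not taken as pairs. The alternatives were a replicate block, no further normalization, RLE or upper-quartile factors, no low-count filter, DESeq2, each library left out, summed host counts, a prior count of 0.5, other peak windows and scores of at least 100, and other tract rules. Hosts taken from the annotation and the genes around Malat1 were added after the data were seen. Versions were R 4.3.3, edgeR 4.0.16, DESeq2 1.42.0, Python 3.11.15, pandas 2.3.3 and matplotlib 3.10.9.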

Additional observations from a re-analysis of the deposited data

How the results depend on the processing

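The count of 3 called members stayed at 3 with other normalization factors, without a low-count filter and without either control library, but in the last of these Snhg1 (adjusted p = 0.0350 and 0.0389 from edgeR) took the place of Gas5. It was 7 with DESeq2 and 7 with the replicate block, which called 2969 of all genes although the replicate numbers were not shown to pair the samples. It ran from 3 to 8 with each library left out, 8 being every member but Snhg3 without either treated library. Without a treated library the spread comes from the controls alone and 67.2% to 77.6% of all genes were called, so those counts say little about the members. The 8 lists of other genes held 1 called gene, 2 without a low-count filter, 13 with DESeq2, 14 with the replicate block and 1 to 77 with each library left out. These 8 lists had 12, 10, 8, 10, 13, 10, 13 and 16 tested genes. Of all tested genes, 4.63% were called in the main test and 4.12% without a low-count filter. DESeq2 called 14.8% and the replicate block 21.8%. With these 2 settings and without a treated library, the share of all genes called rose as well. The higher counts there therefore say little about the lists themselves. Malat1 and Neat1 kept direction and call under all 10 alternatives. Gas5 kept its direction in all 10 and lost its call without either control library. Snhg3 ran from −0.037 to 0.11 with each library left out and turned sign without normalization beyond library size (−0.067), without treated replicate 1 (−0.037) and without control replicate 1 (−0.027). The host median stayed between 0.55 and 1.23 and was 0.68 over all annotated lncRNA hosts. The treated minus control difference in the log2 ratio of the hosts to Malat1 and Neat1 stayed between 2.37 and 3.39. No member had a peak of either list, both of regions more open in treated cells, under any window or score tried. Of the members with a promoter, 1 gene instead of 5 held a pyrimidine tract of at least 6 after the C. A tract that begins within 5 bp of the start was held by 4.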
